A study of Mus musculus with 16 samples.

Results

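The transforming growth factor beta (TGF-beta) superfamily ligands examined here are 10 genes: Bmp10, Bmp2, Bmp4, Bmp6, Bmp7, Tgfb1, Tgfb2, Tgfb3, Mstn and Inhba. They were chosen by name, and all 10 were among the 16118 genes of the table. Their polyadenylated RNA was read in 16 libraries, the atria and the ventricles of 8 adult mice, male littermates, in groups of 4: idKO atrium, control atrium, idKO ventricle and control ventricle. Every mouse was homozygous for floxed Meis1 and floxed Meis2, the homeodomain factors under study. The idKO mice carried 1 copy of MerCreMer, a Cre recombinase activated by tamoxifen and driven by the cardiomyocyte promoter alpha-MHC, and the control mice carried none. Tissue was taken 2 weeks after tamoxifen, with the outflow tract removed. The labels do not give ages beyond adult. Any effect of the transgene itself is part of every idKO difference, and deletion was aimed at cardiomyocytes alone, while several of these ligands are also made by endothelium and fibroblasts.

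Ligands of this family are secreted as dimers that bring together type I and type II serine/threonine kinase receptors. Bone morphogenetic proteins (BMPs) mostly signal through SMAD1, SMAD5 and SMAD9, and TGF-betas, activins and myostatin through SMAD2 and SMAD3, with SMAD4 as the common partner. In the heart, BMP2 and BMP4 pattern the atrioventricular canal and outflow tract of the embryo, BMP10 is a product of atrial muscle that acts on endothelium through ALK1 (gene Acvrl1) and endoglin, and TGF-betas drive matrix production by fibroblasts.

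Libraries held 13.1 to 21.8 M (mega) reads in genes, and values are read counts per M of effective reads (normalised CPM). Meis2 averaged 8.82 ± 0.848 in idKO ventricles and 26.8 ± 4.24 in control ventricles (SD, n = 4 each; log2 fold change -1.49, limma adjusted p = 1.96e-05). In atria it averaged 17.7 ± 1.64 in idKO and 20.0 ± 1.48 in control mice (adjusted p = 0.966). Meis1 was not called in ventricles (23.1 ± 2.29 in idKO and 27.3 ± 0.767 in control mice, adjusted p = 0.236) or in atria (29.7 ± 2.76 in idKO and 28.3 ± 2.86 in control mice, adjusted p = 0.986). Every idKO ventricle did lie below every control ventricle for Meis1 (limma, unadjusted p = 0.0213). Of all genes tested in ventricles, 8.99% had no overlap in either direction. Esr1, whose hormone-binding part MerCreMer contains, averaged 3099 ± 574 in idKO ventricles and 0.967 ± 0.633 in control ventricles. It averaged 186 ± 95.5 in idKO atria and 5.02 ± 0.895 in control atria. The 5 atrial muscle markers (Myl7, Myl4, Sln, Nppa, Dkk3) were all higher in atria, and the 5 ventricular ones (Myl2, Myl3, Irx4, Fhl2, Mpped2) all lower there, in both genotypes.

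None of the ligands tested was called between genotypes. In control hearts, Bmp10, Tgfb3, Bmp2, Tgfb2, Bmp6 and Bmp4 were called higher in atria, and Bmp7 was called lower there. These are 6 and 1 of the 10 ligands, beside 28.2% and 28.7% of all genes. Bmp10 and Bmp7 passed the filter mainly through the chamber where they were higher. The order of the ligands within a chamber was nearly the same in both genotypes, with Bmp10 far above the others in atria and last in ventricles.

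**Figure D1:**
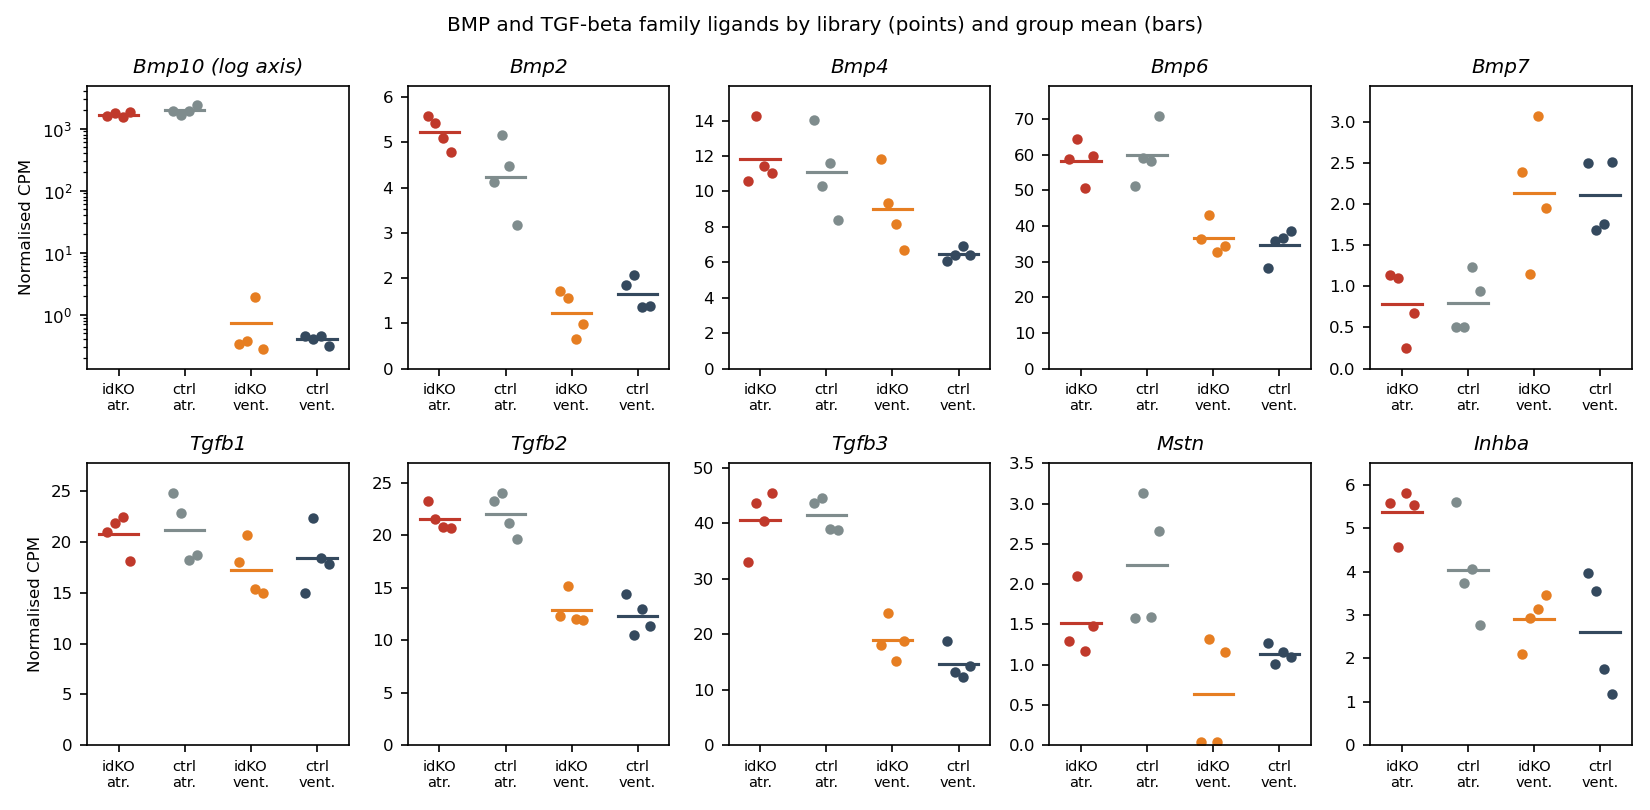
Normalised CPM of each ligand in each library (points; bars are group means, n = 4) in idKO atria, control atria, idKO ventricles and control ventricles. The axis starts at 0 except for Bmp10, which has a log axis. Bmp10 lies between 1519 and 2376 in atria and between 0.278 and 1.93 in ventricles, and idKO and control points overlap for every ligand in both chambers.

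Levels between genes were compared per kb of exon. In idKO atria the order was Bmp10 with 374 normalised CPM per kb, Bmp6 with 15.0, Tgfb3 with 12.0, Bmp4 with 5.26, Tgfb1 with 4.13, Tgfb2 with 3.73, Bmp2 with 1.47, Inhba with 0.841, Mstn with 0.559 and Bmp7 with 0.196. In control atria it was Bmp10 with 439, Bmp6 with 15.3, Tgfb3 with 12.3, Bmp4 with 4.93, Tgfb1 with 4.20, Tgfb2 with 3.80, Bmp2 with 1.19, Mstn with 0.829, Inhba with 0.633 and Bmp7 with 0.199. Neighbours whose libraries overlapped were Bmp6 and Tgfb3, and Tgfb1 and Tgfb2, in both genotypes. Inhba and Mstn also overlapped in both, and in control atria Bmp4 overlapped Tgfb1 and Bmp2 overlapped Mstn.

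In idKO ventricles Bmp6 led with 9.41 normalised CPM per kb, then Tgfb3 with 5.61, Bmp4 with 4.00, Tgfb1 with 3.42 and Tgfb2 with 2.22. In control ventricles Bmp6 had 8.93, Tgfb3 4.33, Tgfb1 3.65, Bmp4 2.87 and Tgfb2 2.13. The other 5 ligands lay at or below 0.532 in idKO ventricles and at or below 0.525 in control ventricles, where Bmp7 headed them and Bmp10 came last. Bmp6 and Tgfb3 did not overlap in either genotype. Tgfb3, Bmp4 and Tgfb1 each overlapped the next of them in idKO ventricles, as did Tgfb3, Tgfb1 and Bmp4 in control ventricles, and Bmp7, Bmp2, Mstn and Inhba formed an overlapping low group in both. Bmp10 overlapped Mstn in idKO ventricles and lay below its nearest neighbour, Inhba, in control ventricles.

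Bmp10 (chromosome 6, 87428994 to 87437677, plus strand, GRCm38) encodes the atrial ligand BMP10. It had 1589, 1753, 1519 and 1851 normalised CPM in idKO atria, against 1907, 1669, 1941 and 2376 in control atria. The groups overlap, since 2 idKO atria lie above the lowest control atrium. The log2 fold change was -0.23 ± 0.11 (SE; 95% interval -0.46 to 0.00; limma, unadjusted p = 0.0529, adjusted p = 0.966). Because Bmp10 was picked as an atrial factor, its chamber test, though counted with those of the other ligands, carries no weight. Its atrial mean was 2290 times the ventricular mean in idKO mice and 4836 times in control mice, on 3 to 25 ventricular reads per library. Without idKO ventricle 3 the ratio in idKO mice was 5030, and leaving out any other library gave 1897 to 2362 in idKO and 4505 to 5085 in control mice.

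In ventricles Bmp10 had 4, 4, 25 and 3 reads in idKO mice (0.342, 0.381, 1.93 and 0.278 normalised CPM), against 5, 5, 4 and 4 reads in control mice (0.449, 0.412, 0.453 and 0.318). Replicate 3 of the idKO ventricles stands apart: the exact 95% Poisson interval of its 25 reads, which covers counting error only, runs from 16.2 to 36.9, and that of 5 reads from 1.62 to 11.7. With it the means were 0.733 ± 0.800 in idKO and 0.408 ± 0.0628 in control ventricles (SD, n = 4 each; exact two-sided permutation test, p = 0.943, smallest possible 0.029). Without it the idKO mean was 0.334 ± 0.0519 (n = 3). A count of 3 reads corresponds to 0.247 to 0.352 in the ventricular libraries.

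In that mouse the ventricular Bmp10 value was 0.127% of the atrial one, against 0.0150% to 0.0217% in the other 3 idKO mice and 0.0134% to 0.0247% in control mice. Myl7, Sln and Myl4, other genes of atrial muscle, did not stand out in the same library. Myl7, the atrial regulatory light chain, was at 0.183% of its atrial value there, within 0.0958% to 0.294% in the other idKO ventricles. Sln, the atrial inhibitor of the calcium pump, was at 0.148%, within 0.102% to 0.267%, and Myl4 at 0.230%, within 0.140% to 0.408%. Each of these ranges is wider than the Bmp10 value of 0.127%, so these genes could not show a rise of that size. The source of the Bmp10 reads was not tested. Nppa, the atrial natriuretic peptide gene, was higher in idKO ventricles as a group (1115 ± 500 normalised CPM in idKO and 185 ± 25.0 in control ventricles, SD, n = 4 each; limma adjusted p = 0.000317), and replicate 3, at 989, lies inside that range.

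**Figure D2:**
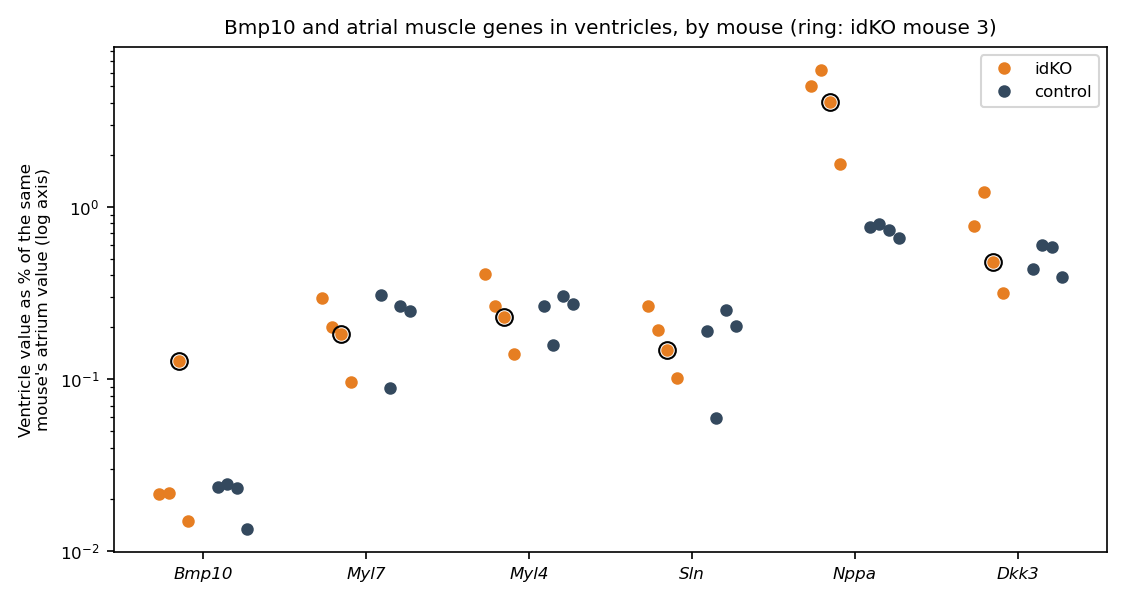
Ventricular value as a percentage of the same mouse's atrial value (log axis) for Bmp10 and 5 atrial muscle genes, with idKO mice left of control mice; a ring marks idKO mouse 3. That mouse has 0.127% for Bmp10, while its Myl7, Myl4, Sln and Dkk3 points lie among those of the other mice.

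Mstn (chromosome 1, 53061640 to 53068079, plus strand) encodes myostatin, which restrains the growth of muscle through activin type II receptors. It was sparse: 16, 31, 21 and 27 reads in idKO atria (1.29, 2.10, 1.17 and 1.49 normalised CPM), against 20, 52, 22 and 46 in control atria (1.59, 3.14, 1.59 and 2.66). The groups overlap, and the log2 fold change of -0.35 ± 0.22 (SE) was not called (limma adjusted p = 0.966). In ventricles it had 0, 15, 0 and 14 reads in idKO mice, against 15, 13, 11 and 15 in control mice. The idKO ventricles at 0 Mstn reads had 19.0 and 19.5 M reads in all, and 3 reads, taken as the limit that a count of 0 allows, correspond to 0.266 and 0.265 normalised CPM there. The other pair of idKO ventricles lay at 1.31 and 1.15, within the control range of 1.01 to 1.27. Over the 4 mice a group the difference was not resolved (0.635 ± 0.693 in idKO and 1.13 ± 0.107 in control ventricles, SD; exact two-sided permutation test, n = 4 each, p = 0.371).

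RefSeq promoters (GRCm38.p6) matched 7 of the ligands; Bmp2, Bmp7 and Tgfb3 had no entry. In the 250 bases before the start, TGACAG, the core hexamer bound by MEIS factors, was sought on both strands. Of all 32851 promoters, 15.9% hold it, and of the 7 ligands Mstn alone does, with 2 copies. AGATAA, a form of the GATA-factor site, is in 9.99% of promoters and among the 7 in Bmp10 alone, also with 2 copies. AGGTGT, a T-box site, is in 11.8% and among the 7 in Bmp6 alone. The promoters of Mstn and Bmp10 are shown because they belong to the ligands with the most uneven reads in idKO ventricles; both are 5′ to 3′ on the plus strand, with TGACAG in capitals for Mstn (chr1:53061390-53061639) and AGATAA for Bmp10 (chr6:87428744-87428993).
Mstn: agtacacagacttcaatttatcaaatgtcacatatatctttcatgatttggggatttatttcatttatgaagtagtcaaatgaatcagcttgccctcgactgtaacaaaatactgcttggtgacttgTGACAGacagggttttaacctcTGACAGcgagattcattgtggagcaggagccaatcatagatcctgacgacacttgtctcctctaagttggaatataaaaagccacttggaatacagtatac
Bmp10: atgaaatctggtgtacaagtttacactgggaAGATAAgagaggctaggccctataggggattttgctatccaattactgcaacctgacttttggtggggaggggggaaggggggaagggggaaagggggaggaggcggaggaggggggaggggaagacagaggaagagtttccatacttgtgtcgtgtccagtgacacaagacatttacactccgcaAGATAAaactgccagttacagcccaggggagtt
These matches are letters in a window and carry no measurement of binding.

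Between genotypes, 0 of the 8 ligands tested were called in ventricles by limma, where 2.03% of all 13144 genes tested were called in either direction. Bmp10 and Mstn did not reach the filter of 1 CPM in 4 ventricles. At an unadjusted p under 0.05 there were 2 ligands, Bmp4 and Tgfb3, against 15.0% of all genes, and DESeq2, edgeR and limma voom on the recovered reads called 0 as well. No ligand had idKO and control ventricles that did not overlap, against 8.99% of all genes. Over the 8 ligands the median log2 fold change stood at 0.07, and -0.01 over all genes tested.

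Bmp4 (chromosome 14, 46383520 to 46390669, minus strand) had 11.8, 9.36, 8.14 and 6.72 normalised CPM in idKO ventricles, against 6.09, 6.41, 6.89 and 6.40 in control ventricles. Of the idKO ventricles 3 lie above all control ventricles, and 1 lies among them. Its log2 fold change was 0.40 ± 0.16 (SE; 95% interval 0.06 to 0.74; unadjusted p = 0.0233), with a limma adjusted p of 0.245. Tgfb3 (chromosome 12, 86056745 to 86079041, minus strand) had 18.0, 23.9, 15.3 and 18.7 in idKO ventricles, against 18.8, 13.2, 12.3 and 14.3 in control ventricles. Here 1 control ventricle, at 18.8, lies above all idKO ventricles but the highest, and the others lie below every idKO ventricle. Its log2 fold change was 0.35 ± 0.15 (SE; limma adjusted p = 0.284). In the other 6 ligands tested, log2 fold changes ran from -0.27 ± 0.23 for Bmp2 to 0.18 ± 0.26 for Inhba, with adjusted p values of 0.629 or more.

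Beside these values, the summed level of 6 fibroblast markers (Col1a1, Col1a2, Pdgfra, Dcn, Tcf21, Lum) ran from 896 to 1384 normalised CPM in idKO ventricles and from 854 to 972 in control ventricles, with 0 of 6 called. That of 6 macrophage markers ran from 308 to 386 in idKO ventricles and from 275 to 290 in control ventricles, with 1 of 6 called. Mesothelial markers summed to 9.54 to 27.4 in idKO ventricles and 27.1 to 35.9 in control ventricles, with 1 of 4 tested called lower, and the 5 ventricular muscle markers to 14650 to 16600 in idKO and 17510 to 18840 in control ventricles, with 3 of 5 called lower. Those 3 were Irx4, Fhl2 and Mpped2, while Myl2 and Myl3 were not called. The 6 general heart muscle markers (Myh6, Tnnt2, Tnni3, Actc1, Ryr2, Mybpc3) overlapped between genotypes. They summed to 65650 to 76040 in idKO and 71890 to 77670 in control ventricles, with only Ryr2 called, lower. None of these markers was at 0 reads in a whole group. The part of these cell types in the ligand values was not tested, and in RNA from whole tissue fewer cells of a type and less RNA per cell cannot be told apart.

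In atria, 0 of the 9 ligands tested were called by limma, where 0.0207% of 14523 genes were called, 3 in all; Bmp7 did not reach the filter. At an unadjusted p under 0.05 there were 0 ligands, against 4.61% of all genes, and DESeq2, edgeR and voom called 0 too. Groups did not overlap for 0 ligands, against 2.82% of all genes. For log2 fold changes the median was -0.03 over the 9 ligands and 0.00 over all genes tested. So few genes passed in atria that a count of 0 has little weight for the ligands. Neither Meis1 nor Meis2 was called between genotypes in atria.

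After Bmp10, the smallest unadjusted p in atria was that of Inhba. Inhba (chromosome 13, 16011851 to 16031621, plus strand) encodes the subunit of activin A, a ligand that signals through ACVR2A or ACVR2B. It had 5.58, 4.57, 5.82 and 5.53 normalised CPM in idKO atria, against 5.61, 3.73, 4.06 and 2.78 in control atria. Of the control atria 1 lies among the idKO values and the other 3 below them all. The log2 fold change was 0.36 ± 0.18 (SE; unadjusted p = 0.0678; limma adjusted p = 0.966). For Bmp4, Bmp6, Tgfb1, Tgfb2 and Tgfb3, log2 fold changes lay between -0.04 and 0.10, and the widest 95% interval, that of Bmp4, ran from -0.24 to 0.43.

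The difference between the genotype effects of the chambers (atrial minus ventricular) was called for 0 of 10 ligands by limma, where 0.296% of 14871 genes were called (44 genes, and 71 with the mouse as a replicate block); 1 ligand and 6.54% of genes had an unadjusted p under 0.05, and DESeq2, edgeR and voom called 0 ligands. The ligand was Bmp2, with a difference of 0.53 ± 0.25 (SE; unadjusted p = 0.0473, limma adjusted p = 0.751). Bmp2 (chromosome 2, 133552159 to 133562885, plus strand) averaged 5.23 ± 0.358 normalised CPM in idKO atria and 4.24 ± 0.827 in control atria. It averaged 1.23 ± 0.497 in idKO ventricles and 1.66 ± 0.348 in control ventricles (SD, n = 4 each). The genotype difference was positive in atria and negative in ventricles, and neither was called.

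**Figure D3:**
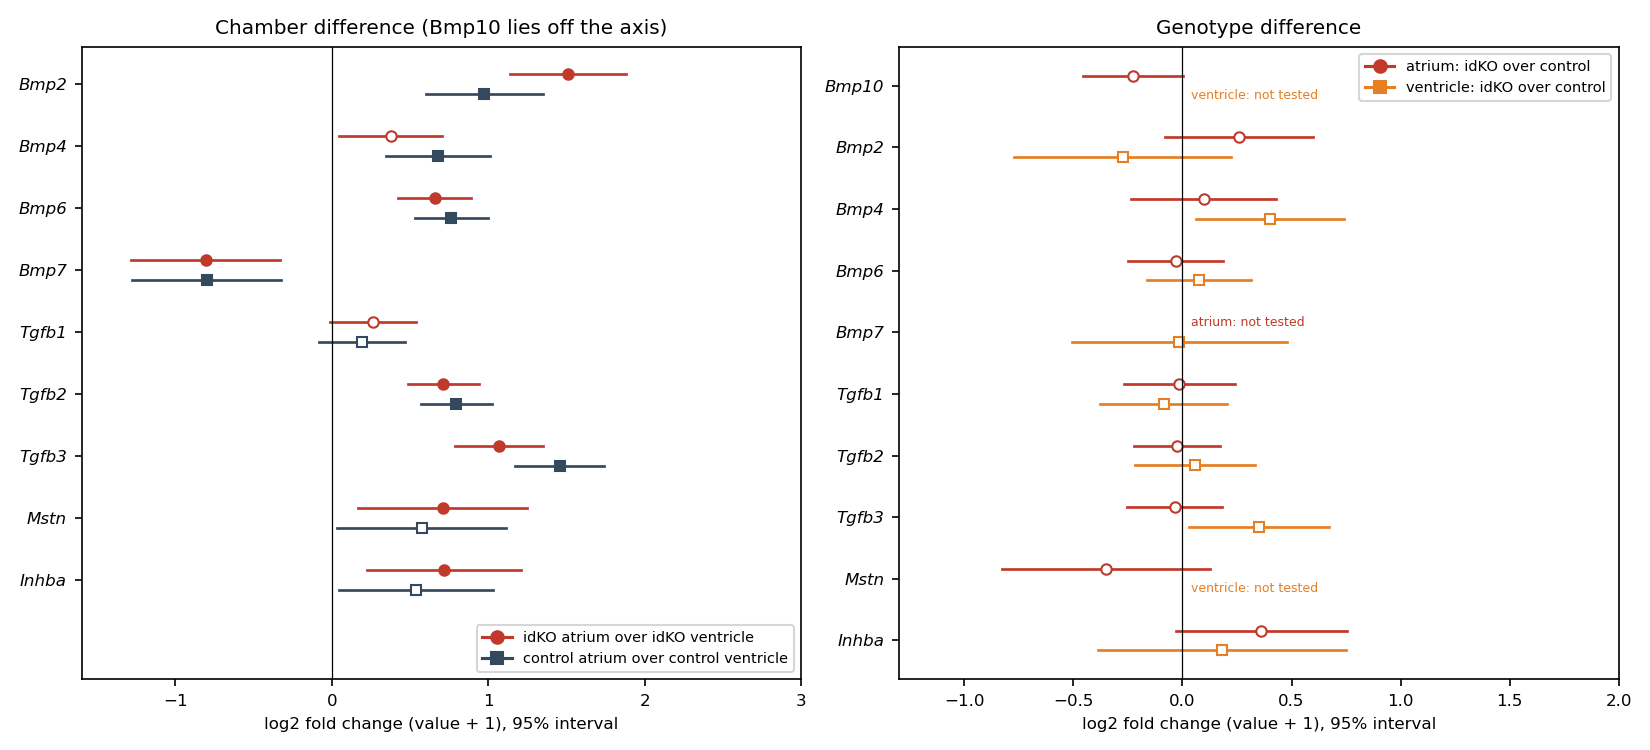
Log2 fold changes of the ligands with 95% intervals (log2(value + 1), limma): atrium over ventricle in idKO and control mice on the left, and idKO over control in atria and ventricles on the right. Filled symbols passed an adjusted p of 0.05. All chamber points but those of Bmp7 lie above 0, and all genotype points are open; Bmp10, at 10.01 and 10.44, lies off the left axis.

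Between chambers, 7 ligands were higher in atria of idKO mice, where 26.8% of 14871 genes were called higher, and 1 was lower, where 27.1% were. In control mice 6 were higher, where 28.2% of genes were, and 1 was lower, where 28.7% were. Both counts of higher ligands include Bmp10, and the idKO count also includes Mstn. Bmp10 and Mstn passed the filter through their atrial libraries, so that a difference toward atria was built into their passing, and Bmp7 owed its passing mainly to ventricles. The median log2 fold change of the 10 ligands, with Bmp10, Mstn and Bmp7 included, was 0.71 in idKO and 0.72 in control mice. Over all genes it was 0.02 in both.

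Tgfb3 had the largest chamber difference after Bmp10 in control mice: 41.5 ± 3.03 normalised CPM in control atria and 14.7 ± 2.85 in control ventricles (SD, n = 4 each). The log2 fold change was 1.46 ± 0.13 (SE; limma adjusted p = 2.64e-08). In idKO mice it was 40.7 ± 5.52 in atria and 19.0 ± 3.62 in ventricles, a log2 fold change of 1.07 ± 0.13 (adjusted p = 1.74e-06). No atrium overlapped a ventricle in either genotype. For Bmp2 the order was the other way: 1.51 ± 0.18 in idKO mice (adjusted p = 7.4e-07) and 0.97 ± 0.18 in control mice (adjusted p = 0.00012), a difference that the genotype-by-chamber test above did not call.

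Tgfb2 (chromosome 1, 186622792 to 186705989, minus strand), needed for valve formation in the mouse embryo, ranged from 20.7 to 23.3 normalised CPM in idKO atria and from 11.9 to 15.2 in idKO ventricles. In control mice it ranged from 19.6 to 24.0 in atria and from 10.5 to 14.4 in ventricles. Its log2 fold change between chambers was 0.71 ± 0.11 in idKO mice and 0.80 ± 0.11 in control mice (SE; limma adjusted p = 1.67e-05 and 4.15e-06). Bmp6 (chromosome 13, 38345107 to 38500302, plus strand), known as the endothelial signal that sets hepcidin in liver, gave 0.66 ± 0.11 in idKO and 0.76 ± 0.11 in control mice. Its atria did not overlap its ventricles, with 50.8 to 64.3 in idKO atria and 32.8 to 43.2 in idKO ventricles, and with 51.2 to 70.8 in control atria and 28.3 to 38.6 in control ventricles.

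Bmp4 was higher in atria of control mice (11.1 ± 2.37 in control atria and 6.44 ± 0.333 in control ventricles, SD, n = 4 each; limma adjusted p = 0.00121). In idKO mice its chambers overlapped and were not called apart (11.8 ± 1.65 in idKO atria and 9.00 ± 2.16 in idKO ventricles; adjusted p = 0.053). That p lies close to the threshold, and Bmp4 was called in idKO mice with the mouse as a replicate block (adjusted p = 0.0308), with edgeR (0.0484), with voom (0.040) and without idKO mouse 1 (0.0129) or control mouse 1 (0.0463) or 4 (0.0477). The change of the chamber difference with genotype was -0.30 ± 0.22 (SE) and was not called (adjusted p = 0.909). Tgfb1 (chromosome 7, 25687002 to 25705077, plus strand), the TGF-beta best known in fibrosis, was not called in either genotype: 20.9 ± 1.93 in idKO atria and 17.3 ± 2.67 in idKO ventricles, and 21.2 ± 3.22 in control atria and 18.4 ± 3.04 in control ventricles. The 95% intervals of its log2 fold change ran from -0.01 to 0.54 in idKO and from -0.08 to 0.47 in control mice.

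Bmp7 (chromosome 2, 172868012 to 172940321, minus strand), a BMP that forms heterodimers with BMP2 and BMP4, was the ligand lower in atria. It had 1.13, 1.10, 0.246 and 0.675 normalised CPM in idKO atria, against 2.39, 1.14, 3.07 and 1.95 in idKO ventricles. In control mice it had 0.502, 0.508, 1.24 and 0.945 in atria, against 2.49, 1.69, 1.76 and 2.51 in ventricles. On the deposited scale every atrium lay below every ventricle of its genotype, in idKO mice only narrowly (1.13 against 1.14). Log2 fold changes were -0.81 ± 0.23 in idKO and -0.80 ± 0.23 in control mice (SE; limma adjusted p = 0.00572 and 0.00558), on 4 to 17 reads per atrium and 13 to 40 per ventricle. Bmp7 reached 1 CPM in 3 idKO and 4 control ventricles, but in only 2 idKO atria and 1 control atrium. Since it passed the filter mainly through ventricles, a difference toward ventricles was largely built in, and its chamber tests carry no weight. Without idKO mouse 3 the idKO difference was -0.51 (adjusted p = 0.0898).

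Inhba averaged 5.37 ± 0.551 in idKO atria and 2.90 ± 0.586 in idKO ventricles, where it was called (log2 fold change 0.72 ± 0.23 SE, limma adjusted p = 0.0147). It averaged 4.04 ± 1.17 in control atria and 2.61 ± 1.36 in control ventricles, where it was not (0.54 ± 0.23, adjusted p = 0.0586, and 0.0268 with the replicate block). Mstn was called in idKO mice (0.71 ± 0.26, limma adjusted p = 0.0265), although its libraries overlapped there. Mstn passed the filter through its atria alone, so a difference toward atria was built in and its chamber tests carry no weight. It was not called in control mice (0.57 ± 0.26, adjusted p = 0.0651, and 0.0344 with the block), where every atrium lay above every ventricle. In idKO mice the Mstn call did not hold with DESeq2 (adjusted p = 0.0512), with edgeR (0.114), or without idKO mouse 1 (0.113) or 3 (0.0997); without mouse 1 Inhba was not called either (0.0876). In control mice Inhba was called without control mouse 2 (0.0402), and Mstn without idKO mouse 2 (0.0469).

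The scale decides part of the chamber pattern. Values summed, in units of 1 M, to 1.04 in idKO atria and 1.46 in idKO ventricles, and to 1.06 in control atria and 1.57 in control ventricles. Scaled to equal sums, the median of all genes moved to 0.44 in idKO and 0.51 in control mice on the log2 scale; 9254 genes were then called higher and 1546 lower in idKO atria, against 3983 and 4024 on the deposited scale. In control atria 9879 were higher and 1388 lower, against 4201 and 4267. On equal sums 9 ligands were higher in atria of each genotype, Tgfb1 among them. Bmp7 stayed negative, at -0.43 (adjusted p = 0.0652) in control mice, where it was no longer called.

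Markers of cells other than heart muscle also differed between the chambers, in both directions. The sum of 5 endocardial markers (Npr3, Nfatc1, Cytl1, Plvap, Vwf) ran from 864 to 1045 normalised CPM in idKO atria and from 196 to 220 in idKO ventricles, and from 769 to 947 in control atria and from 171 to 215 in control ventricles; all 5 were called higher in atria of both genotypes. That of the 6 fibroblast markers ran from 1374 to 1953 in idKO atria and from 896 to 1384 in idKO ventricles, and from 1191 to 1736 in control atria and from 854 to 972 in control ventricles, again with all 6 called higher in both. Mesothelial markers, also 6 of 6 higher in both, summed to 197 to 389 in idKO atria and 9.54 to 27.4 in idKO ventricles, and to 299 to 399 in control atria and 27.1 to 35.9 in control ventricles. Of 6 endothelial markers 2 were called higher and 3 lower in atria of both genotypes. Of 6 smooth muscle and pericyte markers 1 was higher and 2 lower. The latter summed to 457.5 to 619 in idKO atria and 809 to 1045 in idKO ventricles. In control mice they summed to 503 to 552 in atria and 855 to 925 in ventricles. Adipocyte and Schwann cell markers were all higher in atria. The part of these cell types in the ligands' chamber differences was not tested.

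The rest of the pathway was read from lists of other ligands, receptors and co-receptors, SMADs, antagonists and binding proteins, processing and activation genes, and target genes. In ventricles, 3 of the 68 genes tested from these lists (4.41%) were called between genotypes, beside 2.03% of all genes, so the count shows nothing particular to the lists. Among receptors, 1 of 15 fell: Rgma, a co-receptor for BMPs, had 25.8, 27.1, 21.5 and 24.8 normalised CPM in idKO ventricles, against 40.5, 35.0, 31.4 and 33.6 in control ventricles. The groups do not overlap, and the log2 fold change was -0.48 ± 0.10 (SE; limma adjusted p = 0.0249). Among antagonists and binding proteins, 1 of 16 rose: Ltbp3, which holds latent TGF-beta in the matrix, had 59.7, 66.4, 57.4 and 48.6 in idKO ventricles, against 44.1, 41.7, 40.2 and 42.8 in control ventricles. Its log2 fold change was 0.44 ± 0.09 (SE; adjusted p = 0.0231). Among processing and activation genes, 1 of 11 rose: Itgav, the integrin chain that helps to release active TGF-beta, had 41.0, 40.9, 37.8 and 40.6 in idKO ventricles, against 34.2, 29.0, 31.6 and 32.2 in control ventricles (0.33 ± 0.08; adjusted p = 0.0499). No other ligand (7 tested), SMAD (8) or target gene (14) was called.

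For all 3 genes every idKO ventricle lay apart from every control ventricle. With 1 ventricle left out, log2 fold changes ran from -0.53 to -0.42 for Rgma, from 0.38 to 0.52 for Ltbp3 and from 0.29 to 0.36 for Itgav. Rgma was not called without idKO ventricle 3 or control ventricle 1, 2 or 4, or on equal sums (adjusted p = 0.0978). Ltbp3 was not called without idKO ventricle 1, 2 or 3 or control ventricle 2, 3 or 4, and Itgav without any 1 of the 8 ventricles (adjusted p from 0.055 to 0.124). None of the 3 was called with no filter on low genes or with a prior without trend.

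Of the genes named by rank in ventricles, Ltbp2, a relative of Ltbp3 and a TGF-beta target, averaged 6.30 ± 3.23 normalised CPM in idKO and 2.75 ± 0.740 in control ventricles (log2 fold change 0.89 ± 0.26 SE; limma adjusted p = 0.110). Postn, the matrix protein of activated fibroblasts, averaged 67.3 ± 33.6 in idKO and 36.7 ± 7.74 in control ventricles (0.76 ± 0.26; adjusted p = 0.191). Ltbp2 was called with DESeq2 (adjusted p = 0.0128) and Postn without idKO ventricle 4 (0.0306). Log2 fold changes were -0.23 for Twsg1, a BMP-binding protein, -0.52 for Wfikkn2, which binds myostatin, and -0.21 for Furin, which cleaves the ligand precursors. For the receptors Tgfbr1 and Bmpr2 they were 0.19 and 0.12, and for Hfe2 (hemojuvelin) -0.24. For Smad1, Smad5, Smad2 and Smad3 they were 0.34, 0.13, 0.10 and 0.09. The ligands Gdf6, Gdf15, Lefty1 and Gdf11 had 0.32, 0.29, -0.23 and 0.20, the activation genes Nrros and Bmp1 0.25 and 0.18, and the targets Tgif1 and Pmepa1 0.35 and 0.17. All of these had adjusted p values of 0.120 or more.

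In atria, no entry of the 6 lists was called between genotypes (11, 16, 8, 21, 12 and 17 tested). By rank the first were Pmepa1, a TGF-beta target (0.35), Lefty1 (0.54) and Ctgf, a matrix-associated TGF-beta target (0.42), then Eng (0.15), Bmp3 (-0.33) and Acvr1, the type I receptor ALK2 (0.17), as log2 fold changes. Fst (follistatin, which binds activin and myostatin), Ltbp1, Pcsk6, Nrros, Smad5 and Smad3 had 0.39, 0.26, 0.17, -0.15, 0.08 and 0.12. The limma adjusted p was 0.966 for each.

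**Figure D4:**
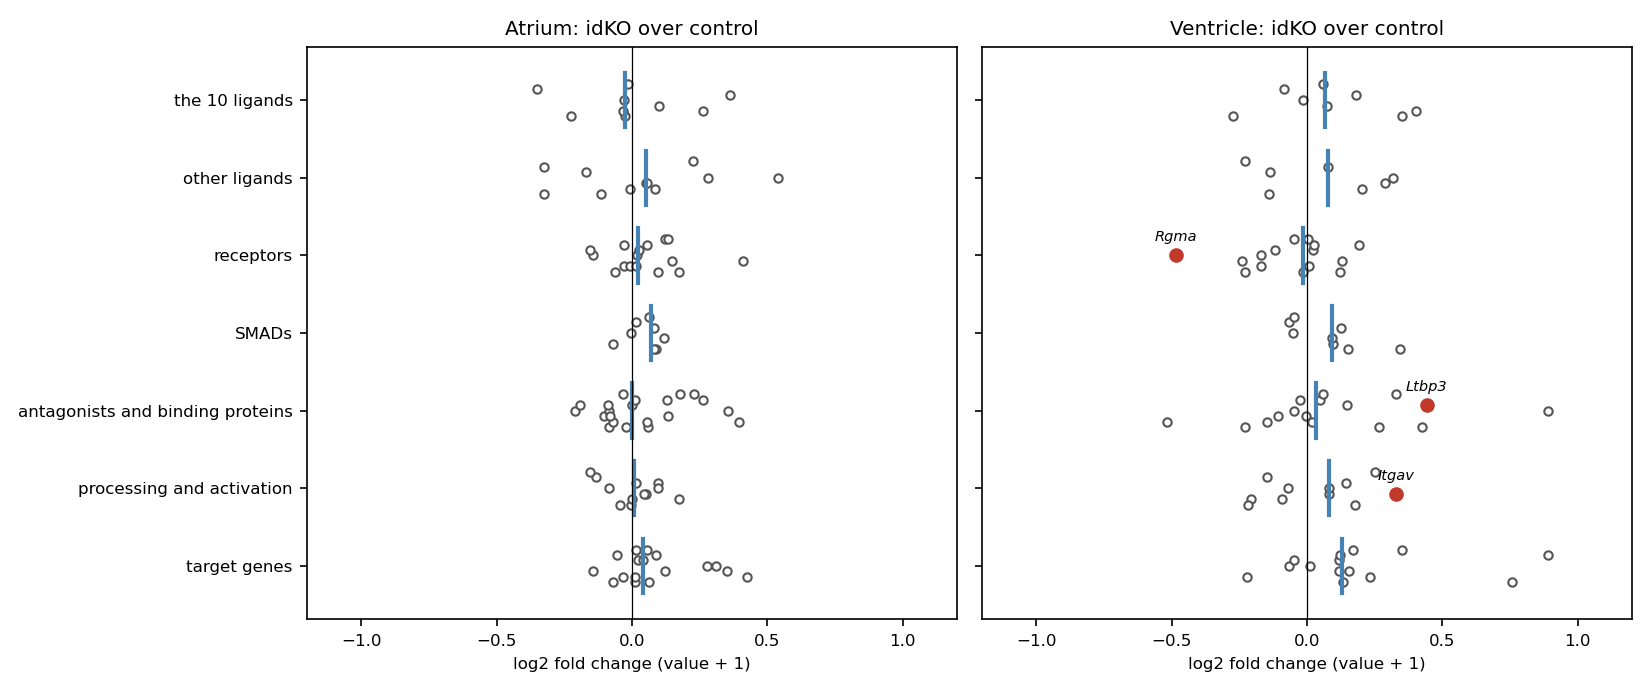
Log2 fold changes of idKO over control in atria and ventricles for the tested ligands and the 6 pathway lists (points are genes, red where called; blue bars are medians). In atria no point is called, and in ventricles Rgma, Ltbp3 and Itgav are.

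Between chambers many genes of the lists were called higher in atria. In idKO and in control mice 14 of 17 target genes were higher in atria and 1 was lower. Of antagonists and binding proteins 15 of 22 were higher in both, with 1 lower in idKO and 2 in control mice. Of receptors 9 of 16 were higher and 4 lower in both, and of other ligands 6 of 11 were higher and 1 lower in idKO mice and 5 higher and 0 lower in control mice. Of SMADs 4 of 8 were higher in idKO and 5 in control mice, and of processing and activation genes 6 of 12 in idKO and 7 in control mice, with 2 lower in both. Each genotype was counted on its own, and the genes behind equal counts need not be the same. The background shares are those given for the ligands. Genes that passed the filter through their atria alone had to differ in that direction. Among the 12945 genes that passed in each chamber, 23.9% were higher in idKO atria and 24.9% in control atria. There, 11 of 14 target genes, 10 of 16 antagonists and binding proteins and 8 of 15 receptors were higher in each genotype. Of other ligands 2 of 7 were higher in idKO and 1 of 7 in control mice. Of the 10 ligands 7 passed in each chamber, and 5 of these were higher and 0 lower in each genotype. They were not the same 5: Bmp4 was called in control mice only, and Inhba in idKO mice only. Of all genes that passed in each chamber, 29.9% were lower in idKO atria and 31.8% in control atria.

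Among the SMADs, the inhibitory Smad6 and Smad7 and the BMP-receptor SMAD gene Smad9 had the largest chamber differences. Smad6, which BMP signals induce, averaged 59.4 ± 5.86 normalised CPM in idKO atria and 13.8 ± 0.964 in idKO ventricles, and 59.0 ± 7.65 in control atria and 14.6 ± 2.25 in control ventricles (SD, n = 4 each). Smad7 averaged 42.5 ± 2.77 in idKO atria and 15.7 ± 1.81 in idKO ventricles, and 40.8 ± 5.26 in control atria and 16.3 ± 2.08 in control ventricles. Smad9 averaged 10.2 ± 1.60 in idKO atria and 3.44 ± 0.973 in idKO ventricles, and 9.65 ± 2.07 in control atria and 3.01 ± 1.01 in control ventricles. Of the 2 BMP10 receptor genes named at the start, Eng (endoglin) was higher in atria, with log2 fold changes of 1.57 ± 0.06 in idKO and 1.43 ± 0.06 in control mice (SE). Acvrl1 (ALK1) was slightly lower there, with -0.20 ± 0.08 in idKO and -0.24 ± 0.08 in control mice (limma adjusted p = 0.0377 and 0.0155). The type II receptor genes did not share the Eng pattern. Bmpr2 averaged 131 ± 7.65 in idKO atria and 129 ± 4.02 in idKO ventricles (SD). In control mice it averaged 131.5 ± 6.08 in atria and 119 ± 4.70 in ventricles. Acvr2a averaged 22.7 ± 1.22 in idKO atria and 29.6 ± 1.74 in idKO ventricles. In control mice it averaged 22.4 ± 1.22 in atria and 27.1 ± 3.02 in ventricles.

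Of the other ligands, Bmp3, which opposes BMP signals, averaged 18.6 ± 3.15 normalised CPM in idKO atria and 23.6 ± 3.87 in control atria (SD, n = 4 each). It had 0 to 2 reads in idKO ventricles and 0 reads in every control ventricle. Of the target genes, Id2 had log2 fold changes between chambers of 1.98 in idKO and 2.05 in control mice. For Ctgf they were 2.59 in idKO and 1.94 in control mice. Id1, a standard BMP target, was not called in either genotype (-0.08 in idKO and 0.05 in control mice; limma adjusted p = 0.589 and 0.719).

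The genes most like each ligand over the 16 libraries were named by Pearson's r of log2(value + 1), among 13217 named genes; the libraries share the 2 chambers, which separate most of these genes, so r describes the chamber pattern first. For Bmp10 they were Plxna4, Cilp2 and Tbc1d1, each at 0.998. For Tgfb3 they were Col4a6 (0.981), Sertad4 (0.977) and Evc (0.977), and for Tgfb2 Evc (0.979), Lgals3 (0.978) and S100a6 (0.973), so Evc, a gene of primary cilia, was near both. For Bmp2 they were Pawr (0.975), Slc16a12 (0.975) and Mbp (0.967), and for Bmp6 Adgrl1 (0.965), Lsp1 (0.964) and Adarb1 (0.962). Bmp4 was nearest to Anxa1 (0.918), Csf1 (0.917) and Col28a1 (0.916), and Bmp7 to Prps1 (0.921), Dmxl2 (0.915) and Ppp2r3c (0.910). The remaining ligands had less close neighbours: Lrrc40 (0.895), Arhgap23 (0.859) and Lbr (0.851) for Mstn, Rab3il1 (0.888), Tubb2b (0.836) and Chpf (0.813) for Tgfb1, and Wbp1l (0.877), Ppp3ca (0.877) and P4ha1 (0.873) for Inhba.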

How the data were processed

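Per the submitters' processing notes, reads were processed with cutadapt and RSEM 1.3.1 against GRCm38; per the labels' protocols, 20 ng of RNA went into each library, and single reads had 60 bases. The sources used here name neither the scaling tool nor any use of strand, so reads of a gene and of an overlapping antisense gene may not be told apart. The deposited values are a normalised signal: adding 0.5 to a whole read count and dividing by the library's effective size in M reads gives the value (a normalised count per M, CPM), and in every library 100% of the read counts so recovered were whole to within 0.01. They are not shares of a library. The whole reads were recovered from them, and since RSEM estimates need not be whole they are taken as rounded.

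The ligands, gene lists and tests were chosen with earlier results of these data known. Genes were tested where at least 4 libraries of a fit reached 1 CPM of the summed values, by limma (version 3.58.1, under R 4.3.3), fitted to log2(value + 1) with a trended prior, two-sided tests and Benjamini-Hochberg adjustment over all genes tested; an adjusted p under 0.05 is a call. Fold changes on this scale understate the change of low genes. The design allowed for raw counts, and its form for normalised values was used. Each chamber was fitted on its 8 libraries, and the chamber and genotype-by-chamber comparisons on all 16, so that comparisons share libraries. Ligands below the filter were compared by exact permutation over samples. Replicates are separate mice. The test was checked on simulated reads, with larger changes than the genotype differences of the ligands and without genes of low level. That check does not cover small changes or sparse ligands.

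Named were all ligands, for each pathway list up to 4 genes with the smallest p in ventricles and up to 2 in atria, 3 nearest genes per ligand, and Meis1, Meis2 and Esr1; Nppa and the pathway genes described between chambers were chosen after their values were seen. Marker lists are given as levels. A result on 1 target gene is not reported here. Gene positions are from the GRCm38 annotation, and promoters are RefSeq's (GRCm38.p6).

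Mouse numbers in the labels pair the atrium and ventricle of 1 animal. Deviations from the group means correlated at 0.204 to 0.327 within a mouse over 12945 genes, and 8 of 8 mice correlated best with themselves. Alternatives covered the scaling, pseudocount, filter, prior, weights, DESeq2 1.42.0, edgeR 4.0.16 and voom on the recovered reads, each library or mouse left out, a joint fit, and the mouse as a replicate block.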

Additional observations from a re-analysis of the deposited data

Results flagged for a closer look

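Single libraries far from the other 3 of their group were sought in 118 groups of 4 libraries, 40 of them of the ligands, and 6 were found, 2 of them in ligands; chance alone gives about 1 in 20. Bmp10 was highest in idKO ventricle replicate 3, at 1.93 normalised CPM (25 reads). Tgfb2 was highest in idKO ventricle replicate 2, at 15.2. Eng was highest in control atrium replicate 4, at 468. Itgav was lowest in idKO ventricle replicate 3, at 37.8, still above every control ventricle. Furin was highest in control ventricle replicate 2, at 116, and Meis1 was highest in the same library, at 28.4.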

How the results depend on the processing

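The ligands tested in the main fits were 8 in ventricles, 9 in atria and 10 in the genotype-by-chamber comparison. None of these was called there under any alternative run, and their smallest adjusted p values were 0.0933, 0.678 and 0.425. Of 160, 187 and 197 such ligand values, 15, 11 and 7 changed sign without being called. With the mouse as a replicate block, 0 ligands were called in these comparisons, while 9 ligands were called between chambers in idKO mice and 9 in control mice, against 8 and 7 without it; the paired fit adds Bmp4 in idKO mice, and Mstn and Inhba in control mice. With a mouse left out, 6 to 9 ligands were called between chambers in idKO and 7 to 8 in control mice, and 0 between genotypes each time. Calls over all genes moved more. In ventricles they were 267, against 148 without a filter, 89 without a trended prior, 537 with DESeq2 and 132 to 359 with a library left out. On equal sums their split was 154 higher and 108 lower, against 70 and 197. In atria they were 3, against 12 with DESeq2 and 2 to 4 with a library left out. Between genotype effects they were 44, against 22 on equal sums, 24 without trend, 86 with DESeq2, 25 with voom, 71 with the replicate block and 19 to 39 with a mouse left out. For the ligands below the filter, Bmp10 in ventricles turned from a log2 difference of 0.21 to -0.08 without idKO ventricle 3, and Bmp7 in atria from -0.02 to between -0.11 and 0.14. The causes were not tested. Read depth limits Bmp10 and Mstn in ventricles and Bmp7 in atria, where 0 to 25 reads stand behind a value.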
